A study of Homo sapiens with 16 samples.

Results

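The transcripts described here come from 45 genes of mitosis and the G2/M transition, listed by name for their known roles in cell division. They encode 9 kinesins, 5 centromere and kinetochore proteins, 8 mitotic kinases and checkpoint or passenger proteins, 5 members of the cyclin and CDK1 group, 4 proteins of the anaphase-promoting complex and cohesin release, 7 spindle assembly proteins, 2 cytokinesis proteins, 2 transcription factors and 3 proteins of chromosome structure and the nuclear lamina. All 45 were found among the 17552 genes with values, and all 45 were among the 11260 genes tested, those whose mean reached 1 FPKM, a level scaled to transcript length and library size. Their mean levels over all libraries ran upward from that of CENPE, KIF18A and KIF14, which stayed at or below 9.9 FPKM in every library, to that of PTTG1, which lay between 62.0 and 234.84 FPKM.

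Cells make most of these transcripts late in the cell cycle, so a population with more cells in G2 and mitosis holds more of them. The MuvB complex, with B-MYB (the product of MYBL2) and then FOXM1, switches the genes on, and its DREAM form represses them in resting or arrested cells. MuvB is known to bind a short promoter element called the cell cycle genes homology region (CHR), and NF-Y binds CCAAT boxes that often lie upstream of it. Cyclin B with CDK1 drives entry into mitosis, and the anaphase-promoting complex ends it by destroying cyclin B and securin.

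RNA was taken from HT-1080, a human fibrosarcoma cell line widely used to study ferroptosis, a form of cell death that depends on iron and lipid peroxidation. Erastin blocks the cystine transporter system xc- and starves cells of glutathione. There were 4 genotypes, each with and without 10 µM erastin for 24 h, which gave 8 groups of 2 libraries. They were siDCAF8 (siRNA against DCAF8, a substrate receptor of CUL4-DDB1 ubiquitin ligases), oeWDR76 (overexpression of WDR76), siDCAF8+siLSH (siRNA against DCAF8 and against LSH, the chromatin remodeler encoded by HELLS) and siNS, the control siRNA. The treatment text that describes erastin stands in every label, so the sample titles and treatment tags decided which libraries were treated. No library with an empty vector accompanies oeWDR76, so the comparison of oeWDR76 with siNS sets an overexpressing line against cells given an siRNA. Nothing in the labels says whether the 2 replicates of each group were separate cultures, and the p-values measure only the spread between these libraries, which may be technical. In bulk RNA, fewer cells in G2 or mitosis and less of these transcripts per cell cannot be told apart.

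The targeted genes were read first. DCAF8 was at 10.34 to 17.41 FPKM in the 8 libraries with its siRNA and at 30.89 to 40.43 FPKM in the others, and WDR76 was at 241.71 to 323.7 FPKM in oeWDR76 libraries and at 2.89 to 7.69 FPKM elsewhere. HELLS was at 4.05 and 4.07 FPKM in siDCAF8+siLSH, against 6.83 and 7.45 FPKM in siDCAF8 and 3.98 and 4.05 FPKM in siNS, so without erastin it was below siDCAF8 and not below siNS. With erastin it was at 2.12 to 2.36 FPKM in siDCAF8+siLSH, against 5.85 to 5.89 FPKM in siDCAF8 and 3.37 to 3.6 FPKM in siNS. DCAF8 itself was less depleted in siDCAF8+siLSH (14.26 to 17.41 FPKM) than in siDCAF8 (10.34 to 12.23 FPKM). All 7 mesenchymal markers lay between 19.0 and 2070 FPKM, while the measured markers of epithelial (5 of 6 with values), blood, endothelial and neural cells stayed at or below 5.58 FPKM. The 4 oeWDR76 libraries stood apart. The first principal component, with 53.8% of the variance, put them at 45.7 to 48.8 and the other 12 at -26.0 to -8.9. Their levels also rose with the GC content of the transcript, by 0.19 to 0.23 log2 units per 10 percentage points of GC, against -0.16 to 0.03 in the other 12 libraries. Sequencing depth is unknown, since the deposited values are FPKM, and replicate libraries had a Pearson correlation of 0.996 to 0.997 over genes.

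Erastin lowered mitotic transcripts in siDCAF8, in siDCAF8+siLSH and in siNS cells, and left them near their untreated level in oeWDR76 cells. Few genes of any kind changed in oeWDR76 cells, so this was not particular to mitotic genes. Erastin called 1.45% of all tested genes there, against 40.9% in siDCAF8, 20.2% in siDCAF8+siLSH and 37.5% in siNS. The summed FPKM of the 45 genes was 975.6 and 1123 in siDCAF8 cells with erastin, against 1515 and 1612 without it. In siDCAF8+siLSH cells the sum was 1236 and 1152 with erastin, against 1858 and 1886 without it. In siNS cells it was 1166 and 1178 with erastin, against 1898 and 1851 without it. These 3 genotypes showed no overlap between treated and untreated sums. In oeWDR76 cells the sum was 2191 and 2225 with erastin, against 2257 in both libraries without it, a gap of a few percent that also did not overlap. The heat map of all members by library shows the same pattern gene by gene.

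**Figure D1:**
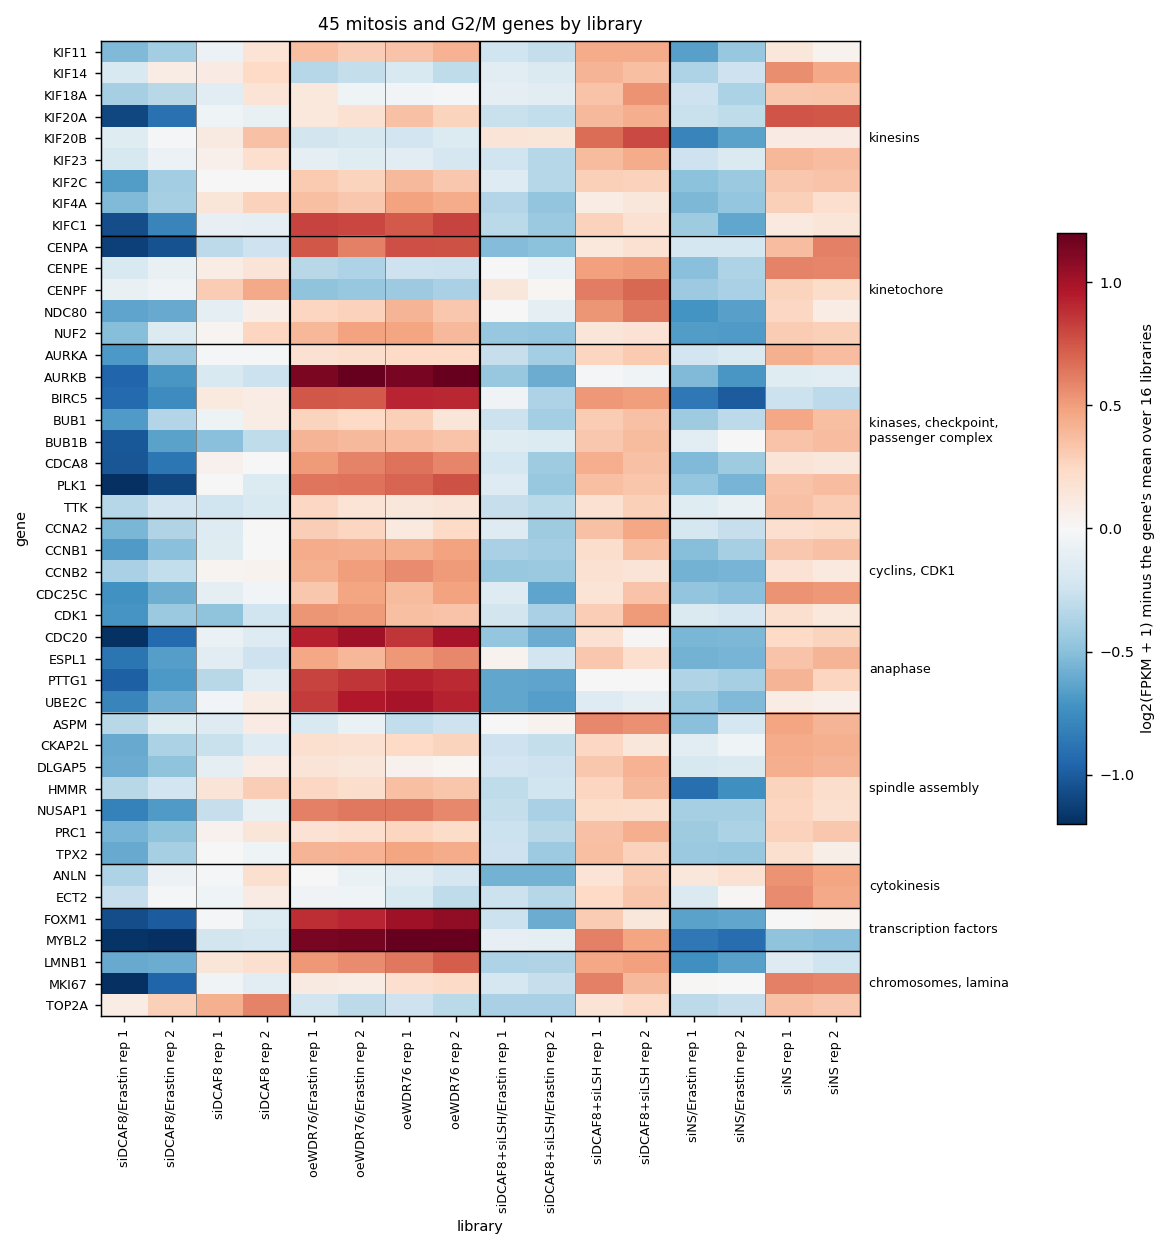
Level of each of the 45 genes (rows, grouped by role) in each of the 16 libraries (columns), as log2(FPKM + 1) minus the mean of that gene over all libraries; erastin columns stand left of their untreated columns. Treated columns are blue in siDCAF8, siDCAF8+siLSH and siNS, while the 4 oeWDR76 columns look alike, and MYBL2, AURKB, FOXM1 and CDC20 are among the reddest rows there.

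In siNS cells erastin lowered all 45 genes and raised none (limma on log2(FPKM + 1), adjusted p under 0.05), whereas 22.4% of all tested genes were called lower and 15.1% higher. The members' median log2 change was -0.64, a median fold of 1.56, and the range was 1.27-fold to 2.09-fold lower, while all tested genes had a median of -0.03. Treated and untreated libraries did not overlap for any member, and for 69.8% of all tested genes. The fall was at least 2-fold in 4 members, HMMR, CDC25C, KIF20A and CENPE. Folds here compare FPKM + 1, which understates the change of genes with low levels.

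HMMR, a spindle protein that helps to organise microtubules at the poles, had 12.14 and 13.79 FPKM in siNS cells with erastin, against 28.72 and 27.5 FPKM without it. Its change was the deepest of the list in siNS cells, with a log2 change of -1.06 (SE 0.07, adjusted p = 2.95e-08). KIF20A, the kinesin that carries the chromosomal passenger complex to the central spindle, had 20.64 and 19.99 FPKM with erastin, against 42.72 and 42.4 FPKM without it (log2 change -1.03, SE 0.06, adjusted p = 2.11e-08). CENPE, the kinetochore kinesin that moves chromosomes to the spindle equator, had 3.42 and 3.86 FPKM with erastin, against 8.47 and 8.42 FPKM without it (log2 change -1.03, SE 0.07, adjusted p = 4.5e-08). These 3 were picked for large called changes without overlap, so their separate libraries are not a further result.

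Within siNS cells the kinetochore group fell most by its median, -0.86 log2 over 5 genes, and the 2 cytokinesis genes least, -0.47. NUF2 and NDC80, which form the outer kinetochore complex that grips microtubules, had log2 changes of -0.97 and -0.86. The cyclin B and CDK1 pair differed in size. CCNB1, the main mitotic cyclin, had 53.05 and 57.66 FPKM with erastin, against 95.79 and 97.24 FPKM without it, a log2 change of -0.79 (SE 0.07, adjusted p = 5.06e-07). CDK1, its kinase partner, had 33.93 and 33.37 FPKM with erastin, against 43.92 and 42.03 FPKM without it, a log2 change of -0.34 (SE 0.09, adjusted p = 0.00854), the shallowest of the list in siNS cells. Without siNS replicate 1 CDK1 no longer passed the test, at -0.31. CDC25C, the phosphatase that activates CDK1, had 5.66 and 5.5 FPKM with erastin, against 12.38 and 12.22 FPKM without it, a log2 change of -1.02 (SE 0.11, adjusted p = 5.29e-06).

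Genes of mitotic exit fell too. CDC20, an activator of the anaphase-promoting complex, had 49.24 and 49.6 FPKM in siNS cells with erastin, against 85.48 and 87.12 FPKM without it (log2 change -0.79, SE 0.08, adjusted p = 1.85e-06). ESPL1, the separase that cuts cohesin, had 5.44 and 5.47 FPKM with erastin, against 11.05 and 11.61 FPKM without it (log2 change -0.93, SE 0.09, adjusted p = 1.4e-06). PTTG1 (securin, which holds separase inactive) and UBE2C (the ubiquitin-conjugating enzyme of the complex) had log2 changes of -0.72 and -0.57. None of these 4 genes had overlapping libraries.

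In siDCAF8 cells erastin lowered 40 of the 45 genes and raised none, against 22.5% of all tested genes called lower and 18.3% called higher. The median log2 change was -0.53, and the members spread more widely than in siNS cells, with an SD over genes of 0.26 log2 against 0.18. Folds ran from 1.06 to 2.16 lower. The 5 genes that missed the threshold were TTK (log2 change -0.08, adjusted p = 0.331), ECT2 (-0.17, adjusted p = 0.125), ASPM (-0.21, adjusted p = 0.0877), CDK1 (-0.22, adjusted p = 0.0716) and KIF14 (-0.22, adjusted p = 0.0596). All 5 had values below 0, and all 5 passed after a correction for GC content and transcript length, which called 45 of 45 lower.

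PLK1, the polo kinase of centrosome maturation and mitotic entry, had 22.73 and 26.26 FPKM in siDCAF8 cells with erastin, against 57.37 and 50.73 FPKM without it (log2 change -1.11, SE 0.09, adjusted p = 1.59e-07). MYBL2, the factor that switches on late cell cycle genes, had 4.42 and 3.45 FPKM with erastin, against 9.52 and 9.63 FPKM without it (log2 change -1.11, SE 0.08, adjusted p = 1.44e-07). MKI67, whose product Ki-67 coats mitotic chromosomes, had 9.32 and 11.14 FPKM with erastin, against 21.98 and 20.53 FPKM without it (log2 change -0.99, SE 0.08, adjusted p = 1.77e-07). These 3 were picked among members without overlap, so their separate libraries are not a further result. Of all tested genes 69.6% had no overlap in this comparison. FOXM1, the forkhead factor of G2/M genes, had 14.69 and 15.38 FPKM with erastin, against 31.42 and 28.29 FPKM without it (log2 change -0.94, SE 0.09, adjusted p = 8.52e-07).

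The siDCAF8 response followed GC content. Its 23 members of higher GC had a median log2 change of -0.71, against -0.35 in the 22 members of lower GC, with Pearson's r of -0.81 across the 45 genes. Over the 11086 tested genes with a GC value the same correlation was -0.46. After correcting each library for GC content and length, r over the members was -0.52 and the medians were -0.68 and -0.51. The members share libraries, and the part of GC content in their changes was not tested.

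In siDCAF8+siLSH cells erastin again lowered all 45 genes and raised none, against 9.54% of all tested genes called lower and 10.6% called higher. The fall was even across the list, with a median log2 change of -0.62, an SD over genes of 0.09 and folds of 1.28 to 1.80. No member had overlapping treated and untreated libraries, where 57.7% of all tested genes had none. LMNB1, which encodes the nuclear lamina protein lamin B1, had 29.11 and 29.34 FPKM with erastin, against 52.65 and 53.91 FPKM without it (log2 change -0.84, SE 0.06, adjusted p = 1.39e-07). ANLN, the scaffold of the cytokinetic ring, had 38.57 and 38.41 FPKM with erastin, against 64.67 and 71.24 FPKM without it (log2 change -0.80, SE 0.08, adjusted p = 9.8e-06). MKI67 had 19.59 and 18.5 FPKM with erastin, against 34.87 and 29.89 FPKM without it (log2 change -0.73, SE 0.08, adjusted p = 9.83e-06). These 3 were the deepest falls, and ESPL1 was the shallowest at -0.35 (SE 0.09, adjusted p = 0.0108). The ESPL1 call was lost at -0.29 without siDCAF8+siLSH replicate 1 and at -0.22 without siDCAF8+siLSH/Erastin replicate 2.

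In oeWDR76 cells no member was called higher or lower with erastin by limma, where 0.471% of all tested genes were called higher and 0.977% lower. At an unadjusted p under 0.05 there were 4 of the 45 members, against 1527 of all 11260 tested genes. Changes ran from -0.19 in MYBL2 to 0.20 in ECT2, with a median of -0.05 and 16 members above 0. Libraries of the 2 groups did not overlap in 29 of the 45 genes (64.4%), against 49.7% of all tested genes. CCNB1 had 104.28 and 103.21 FPKM with erastin, against 102.6 and 106.92 FPKM without it. CDC20 had 139.11 and 146.97 FPKM with erastin, against 131.52 and 144.45 FPKM without it. In both genes the treated and untreated values overlapped. MYBL2 had 26.03 and 26.08 FPKM with erastin, against 27.98 and 32.03 FPKM without it (log2 change -0.19, SE 0.08, adjusted p = 0.316).

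**Figure D2:**
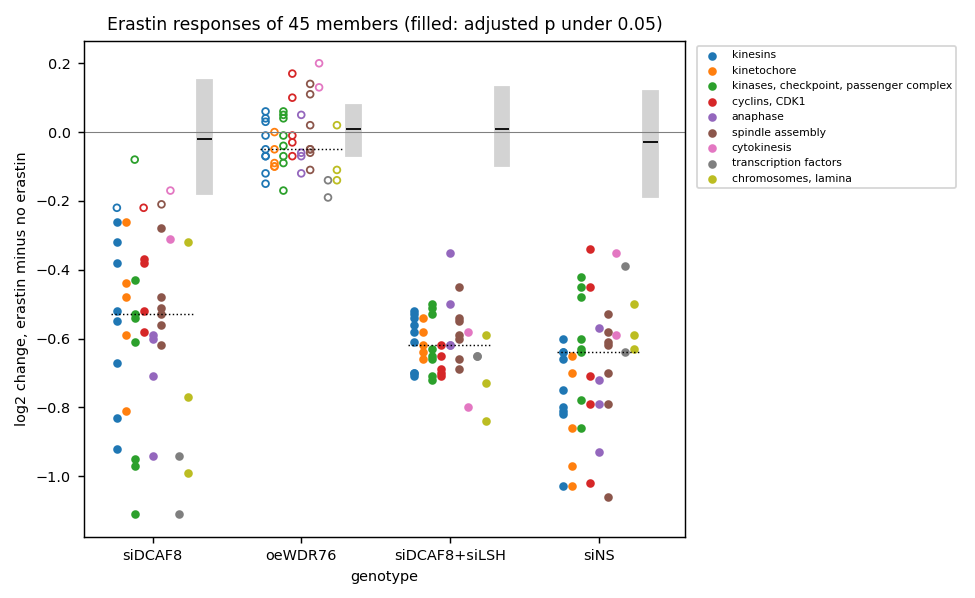
Log2 change with erastin (vertical axis, erastin minus no erastin, log2(FPKM + 1) scale) of each member in the 4 genotypes, coloured by role, filled where adjusted p is under 0.05; the dotted line is the members' median, and the grey bar with a black line gives the 25th to 75th percentile and median of all 11260 tested genes. Members lie below 0 in siDCAF8, siDCAF8+siLSH and siNS, widely spread in siDCAF8 and tightly in siDCAF8+siLSH, and they straddle 0 in oeWDR76.

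The difference between the responses was tested directly. Erastin alone called 1.45% of all tested genes in oeWDR76 cells, against 37.5% in siNS cells. The erastin response in oeWDR76 minus that in siNS was above 0 in 45 of 45 genes and passed the test in 44, against 9.04% of all tested genes called higher and 5.11% lower, with no member called lower. The median difference was 0.64 log2, while all tested genes had a median of 0.04. MYBL2 was the exception at 0.20 (SE 0.12, adjusted p = 0.288). CDC25C differed by 0.98 (SE 0.16, adjusted p = 0.00116), with 10.53 and 11.81 FPKM in oeWDR76 cells with erastin, against 10.97 and 11.91 FPKM without it. NUF2 differed by 0.98 (SE 0.13, adjusted p = 0.000221), with 39.66 and 42.07 FPKM in oeWDR76 cells with erastin, against 41.99 and 39.47 FPKM without it. In siNS cells NUF2 had 18.36 and 18.28 FPKM with erastin, against 37.21 and 36.53 FPKM without it. Both genes thus had overlapping treated and untreated values in oeWDR76 cells and widely separate ones in siNS cells.

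The response in siDCAF8 minus that in siNS differed upward (a shallower fall) in 11 members and downward (a deeper fall) in 4, against 11.0% of all tested genes called higher and 9.84% lower. CENPE differed by 0.77 (SE 0.10, adjusted p = 0.000117), with 4.53 and 4.89 FPKM in siDCAF8 cells with erastin, against 5.69 and 5.96 FPKM without it. MYBL2 differed by -0.71 (SE 0.12, adjusted p = 0.000715), with 5.74 and 5.52 FPKM in siNS cells with erastin, against 7.75 and 7.66 FPKM without it. The other shallower falls were in KIF14, ASPM, HMMR, KIF20B, NUF2, ECT2, TTK, KIF23, CCNB2 and TOP2A, and the other deeper ones in MKI67, CDCA8 and LMNB1. Across the 45 genes these differences had r = -0.73 with GC content, against -0.27 over all tested genes with a GC value. The part of GC content in them was not tested. Without siDCAF8 replicate 1 the count of 15 dropped to 9. The NUF2 call (0.49) was lost at 0.37 without siDCAF8 replicate 1, at 0.32 without siDCAF8/Erastin replicate 2 and at 0.30 after the GC and length correction. The MKI67 call (-0.40) was lost at -0.40 without siNS replicate 1, at -0.39 without siNS/Erastin replicate 1, at -0.35 without siDCAF8 replicate 1 and at -0.28 without siDCAF8/Erastin replicate 1. The TOP2A call (0.31) was lost without either siNS library (0.29 and 0.33), siNS/Erastin replicate 1 (0.29), siDCAF8 replicate 1 (0.22) or siDCAF8/Erastin replicate 2 (0.21), and after the correction (0.19). The LMNB1 call (-0.27) was lost without siNS replicate 2 (-0.22), siNS/Erastin replicate 2 (-0.23), siDCAF8 replicate 2 (-0.24) or either siDCAF8/Erastin library (-0.26 and -0.27).

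The response in siDCAF8+siLSH minus that in siNS differed in few members, 4 higher and 2 lower, against 15.6% of all tested genes called higher and 9.13% lower. ESPL1 differed by 0.58 (SE 0.13, adjusted p = 0.00402), with 8.81 and 7.12 FPKM in siDCAF8+siLSH cells with erastin, against 10.91 and 9.93 FPKM without it. CENPE differed by 0.49 (SE 0.10, adjusted p = 0.00287), with 5.29 and 4.93 FPKM with erastin in siDCAF8+siLSH cells, against 7.83 and 7.94 FPKM without it. HMMR at 0.47 and KIF20A at 0.33 also had shallower falls, and ANLN at -0.46 and LMNB1 at -0.34 had deeper ones. The ANLN call was lost at -0.39 without siDCAF8+siLSH replicate 2. Quantile normalization gave 5 higher and 4 lower, and the correction for GC content and length called 12. In the uncorrected fit the members' shares were below those of all tested genes.

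The response in siDCAF8+siLSH minus that in siDCAF8 differed upward in 3 members (CDC20, PLK1 and MYBL2) and downward in 6 (ANLN, CDK1, TTK, KIF23, ECT2 and CCNB2), against 14.2% of all tested genes called higher and 9.24% lower. Median-ratio scaling gave 2 higher and 10 lower, and the count was 3 without siDCAF8 replicate 1 or without siDCAF8+siLSH replicate 2. After the correction for GC content and length none of the 45 was called by limma, with 8 at an unadjusted p under 0.05. Of the 11086 genes with a GC value only 248 were called after it. CDK1 had 32.87 and 29 FPKM in siDCAF8+siLSH cells with erastin, against 47.22 and 55.03 FPKM without it. In siDCAF8 cells CDK1 had 23.05 and 28.02 FPKM with erastin, against 27.24 and 32.44 FPKM without it. These values overlapped between treated and untreated siDCAF8 libraries and not between those of siDCAF8+siLSH.

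Without erastin, siDCAF8 cells held less of most mitotic transcripts than siNS cells. Of the 45 genes, 29 were lower and 4 higher, against 29.9% of all tested genes called lower and 31.0% higher, and the median log2 change was -0.33 beside 0.01 over all tested genes. KIF20A had 24.04 and 23.42 FPKM in siDCAF8 cells, against 42.72 and 42.4 FPKM in siNS cells (log2 change -0.82, SE 0.06, adjusted p = 2e-08). CENPA, the histone H3 variant that marks centromeres, had 11.95 and 12.61 FPKM in siDCAF8 cells, against 19.85 and 23.49 FPKM in siNS cells (log2 change -0.77, SE 0.07, adjusted p = 1.74e-07). BUB1B, the checkpoint protein BubR1, had 14.1 and 16.29 FPKM in siDCAF8 cells, against 26.04 and 26.57 FPKM in siNS cells (log2 change -0.76, SE 0.09, adjusted p = 2.98e-06). Each gene's siDCAF8 libraries lay far below its siNS libraries.

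The 4 higher genes were BIRC5, LMNB1, MYBL2 and TOP2A. BIRC5, or survivin, the passenger complex subunit that binds chromatin, had 39.46 and 38.54 FPKM in siDCAF8 cells, against 30.14 and 28.94 FPKM in siNS cells (log2 change 0.39, SE 0.09, adjusted p = 0.00083). LMNB1 had 42.04 and 43.47 FPKM in siDCAF8 cells, against 34.07 and 32.07 FPKM in siNS cells (log2 change 0.36, SE 0.06, adjusted p = 2.98e-05). MYBL2 had 9.52 and 9.63 FPKM in siDCAF8 cells, against 7.75 and 7.66 FPKM in siNS cells (log2 change 0.28, SE 0.08, adjusted p = 0.0085). TOP2A, the topoisomerase that untangles sister chromatids, had 128.41 and 145.04 FPKM in siDCAF8 cells, against 122.27 and 119.29 FPKM in siNS cells (log2 change 0.17, SE 0.07, adjusted p = 0.0357). None of the 4 overlapped between groups, nor did 79.8% of all tested genes. The TOP2A call was lost at 0.09 without siDCAF8 replicate 2, at 0.19 without siNS replicate 1 and at 0.16 without siNS replicate 2.

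Under erastin, siDCAF8 cells had 21 members lower and 8 higher than siNS cells, against 30.0% of all tested genes called lower and 34.8% higher, with a median of -0.17. The median was -0.36 in the 23 members of higher GC and 0.01 in the 22 of lower GC (r = -0.51 over the 45 genes). After the GC and length correction these medians were -0.34 and -0.10, with 23 members lower and 7 higher. The part of GC content in these changes was not tested. MKI67 had 9.32 and 11.14 FPKM in siDCAF8 cells with erastin, against 22.83 and 22.5 FPKM in siNS cells with erastin (log2 change -1.08, SE 0.08, adjusted p = 4.7e-09). KIF20B, a kinesin of late mitosis and cytokinesis, had 7.86 and 8.68 FPKM in siDCAF8 cells with erastin, against 4.67 and 5.29 FPKM in siNS cells with erastin (log2 change 0.63, SE 0.08, adjusted p = 3.78e-06). CENPE, lower in siDCAF8 than in siNS without erastin (log2 change -0.47, adjusted p = 2.86e-05), was higher with it (0.30, adjusted p = 0.00151). The treated siDCAF8 libraries of MKI67 lay below both treated siNS libraries, and those of KIF20B and CENPE above them. Of all tested genes 81.0% had no overlap in this comparison.

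**Figure D3:**
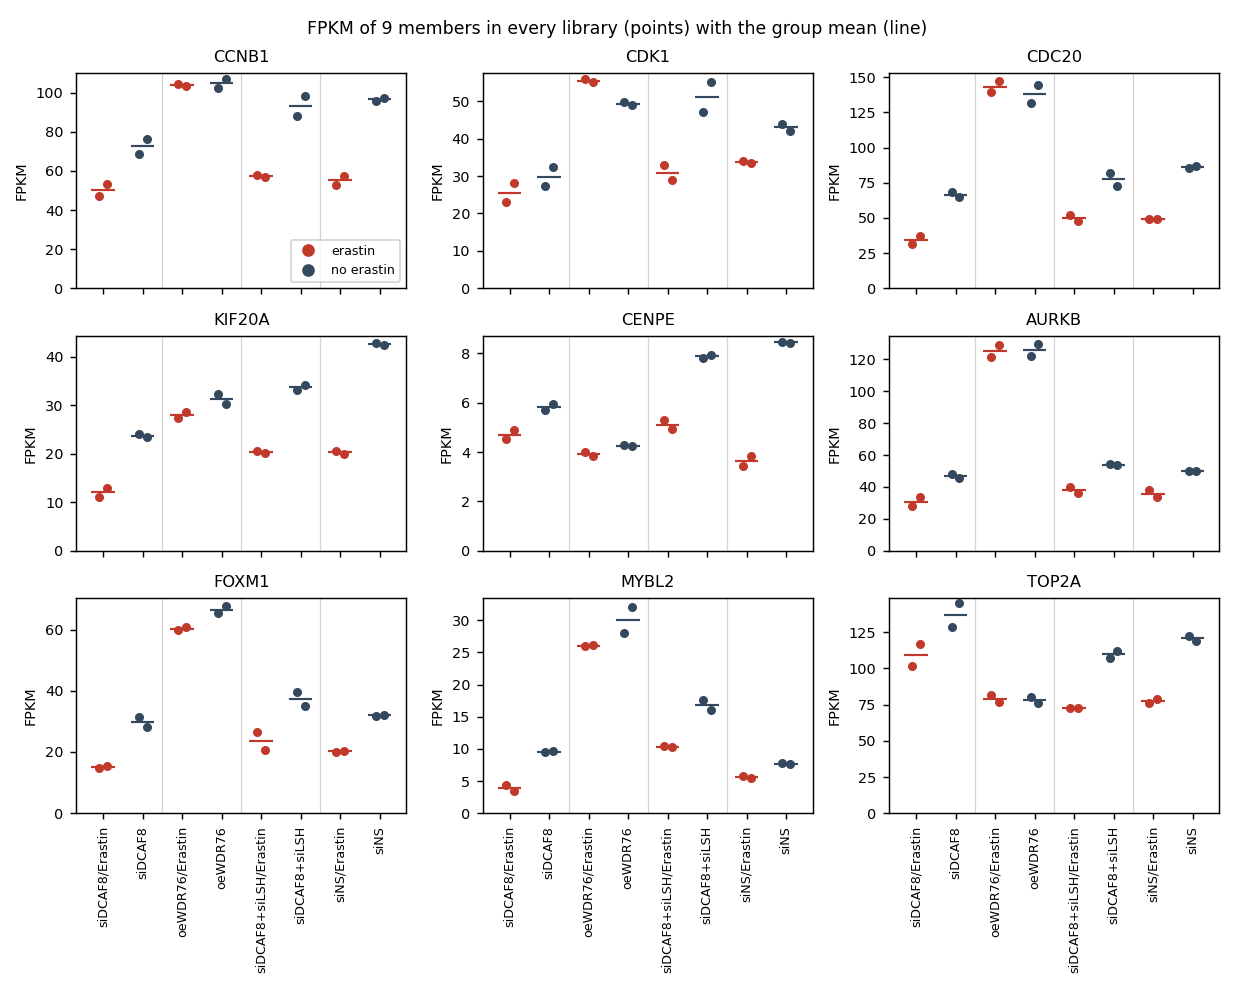
FPKM of 9 members in every library (points) with each group's mean (line), red with erastin and dark without it; groups run from siDCAF8 through oeWDR76 and siDCAF8+siLSH to siNS. In oeWDR76 the red and dark points lie close together in each panel, and AURKB, CDC20, FOXM1 and MYBL2 are higher in the oeWDR76 libraries than in those of the other 3 genotypes.

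Without erastin, 18 members were higher and 16 lower in oeWDR76 than in siNS cells, against 41.6% of all tested genes called higher and 32.0% lower, so the members' shares were near those of all genes. The median log2 change was 0.10 and the range -0.85 to 1.83. With quantile normalization the split was 13 higher and 18 lower, so the direction of the list as a whole was not stable to scaling. MYBL2 had 27.98 and 32.03 FPKM in oeWDR76 cells, against 7.75 and 7.66 FPKM in siNS cells (log2 change 1.83, SE 0.08, adjusted p = 9.66e-12). AURKB, the kinase of the chromosomal passenger complex, had 122.3 and 129.76 FPKM in oeWDR76 cells, against 49.81 and 50.2 FPKM in siNS cells (log2 change 1.32, SE 0.08, adjusted p = 1.98e-10). BIRC5, its partner, had 69.11 and 68.63 FPKM in oeWDR76 cells, against 30.14 and 28.94 FPKM in siNS cells (log2 change 1.19, SE 0.09, adjusted p = 1.85e-09). These 3 were picked among members whose groups did not overlap, so their separation is not a further result. Of all tested genes 87.8% had no overlap in this comparison.

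FOXM1 had 65.26 and 67.65 FPKM in oeWDR76 cells, against 31.86 and 32.22 FPKM in siNS cells (log2 change 1.03, SE 0.09, adjusted p = 1.3e-08), so both transcription factors of the list were called higher. LMNB1 had 59.34 and 63.59 FPKM in oeWDR76 cells, against 34.07 and 32.07 FPKM in siNS cells (log2 change 0.87, SE 0.06, adjusted p = 4.73e-10). CDC20 had 131.52 and 144.45 FPKM in oeWDR76 cells, against 85.48 and 87.12 FPKM in siNS cells (log2 change 0.67, SE 0.08, adjusted p = 8.07e-07). UBE2C and PTTG1 rose as well, with log2 changes of 0.88 and 0.57, so 3 of the 4 anaphase genes were called higher and ESPL1 was not (0.18, adjusted p = 0.0878).

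Other members fell with oeWDR76. CENPE had 4.27 and 4.23 FPKM in oeWDR76 cells, against 8.47 and 8.42 FPKM in siNS cells (log2 change -0.85, SE 0.07, adjusted p = 1.52e-08). TOP2A had 80.4 and 75.8 FPKM in oeWDR76 cells, against 122.27 and 119.29 FPKM in siNS cells (log2 change -0.62, SE 0.07, adjusted p = 3.64e-07). ECT2 and ANLN, the exchange factor and the scaffold of the cytokinetic furrow, had log2 changes of -0.76 and -0.67. In each of these 4 named genes the oeWDR76 libraries lay below the siNS libraries, in a comparison where 87.8% of all tested genes had no overlap. CCNB1 and CDK1 did not pass the test (0.12, adjusted p = 0.138, and 0.19, adjusted p = 0.0699). MKI67 was called lower (-0.38, adjusted p = 0.000295) but stood at 0.13 after the correction for GC content and length.

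The members' changes with oeWDR76 varied with GC content. The 23 members of higher GC had a median log2 change of 0.38 and the 22 of lower GC one of -0.24, with r = 0.72 over the 45 genes and 0.32 over all tested genes with a GC value. After the correction r over the members was 0.58 and the counts were 17 higher and 12 lower. CENPE, TOP2A and KIF20B have transcripts of 35.3%, 39.1% and 34.2% GC, and MYBL2 and AURKB of 60.5% and 55.6%. The oeWDR76 libraries are also the ones whose levels, relative to the other libraries, rise with GC over all genes. The part of this in the members' changes was not tested.

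**Figure D4:**
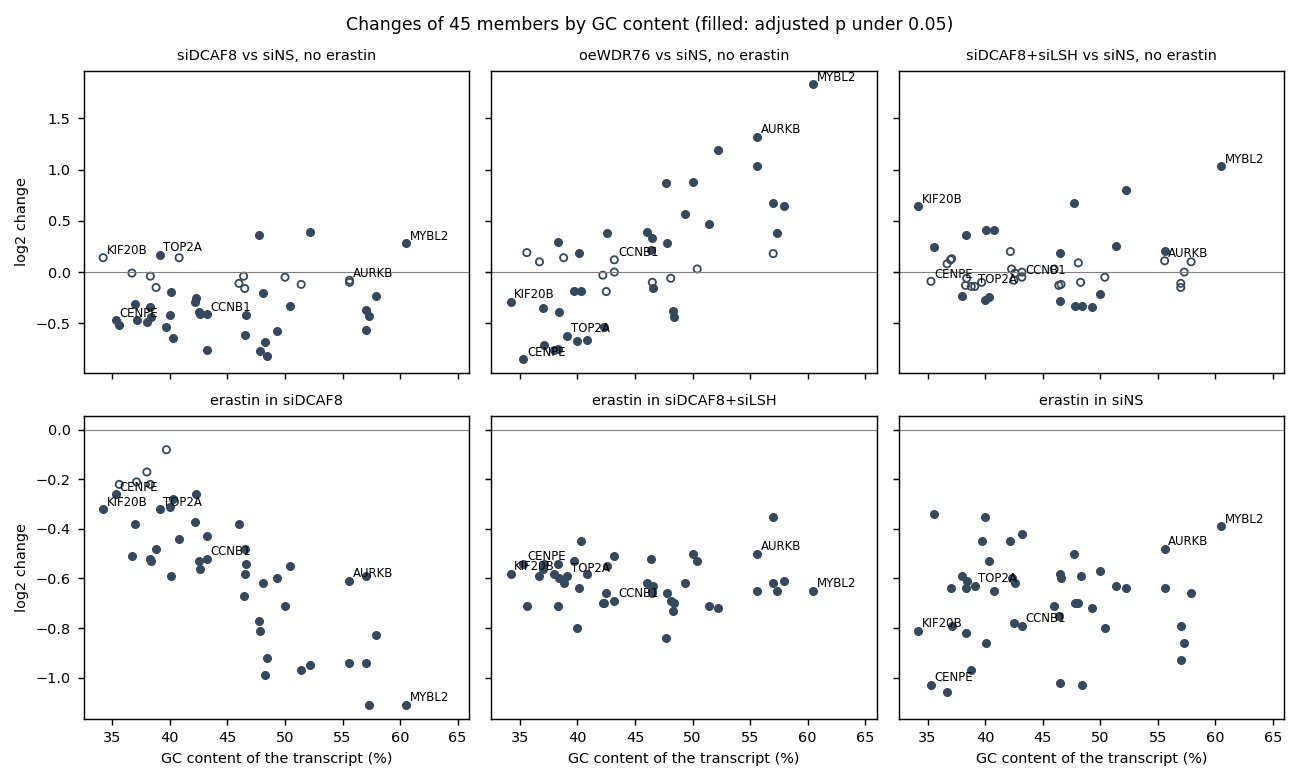
Log2 change (vertical axes) of each of the 45 members against the GC content of its transcripts in percent (horizontal axes), for the 3 genotypes against siNS without erastin (top) and for erastin in siDCAF8, siDCAF8+siLSH and siNS (bottom), filled where adjusted p is under 0.05. Changes climb with GC in oeWDR76 (r = 0.72), fall with it for erastin in siDCAF8 (r = -0.81) and show no slope for erastin in siDCAF8+siLSH (r = -0.02) or siNS (r = 0.05). For erastin in siDCAF8+siLSH and siNS, r over all tested genes with a GC value was 0.30 and -0.16. Over the members it was -0.47 and 0.23 after the GC and length correction, which is not drawn.

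With erastin in both, oeWDR76 cells held more of nearly all mitotic transcripts than siNS cells: 37 members were higher and 1 lower, against 45.2% of all tested genes called higher and 31.0% lower. The median log2 change was 0.84, beside 0.11 over all tested genes. It was 1.03 in the 23 members of higher GC and 0.34 in the 22 of lower GC (r = 0.71 over the 45 genes), and 0.86 and 0.53 after the GC and length correction, which called 44 higher and none lower. The part of GC content in these changes was not tested. MYBL2 had 26.03 and 26.08 FPKM in oeWDR76 cells with erastin, against 5.74 and 5.52 FPKM in siNS cells with erastin (log2 change 2.03, SE 0.08, adjusted p = 2.43e-12). AURKB had 121.73 and 129.11 FPKM in oeWDR76 cells with erastin, against 37.83 and 33.56 FPKM in siNS cells with erastin (log2 change 1.79, SE 0.08, adjusted p = 4e-12). CCNB1 had 104.28 and 103.21 FPKM in oeWDR76 cells with erastin, against 53.05 and 57.66 FPKM in siNS cells with erastin (log2 change 0.90, SE 0.07, adjusted p = 4.1e-09). The groups of these 3 genes did not overlap, nor did those of 88.0% of all tested genes. The 1 member called lower was ANLN (-0.20, SE 0.08, adjusted p = 0.0438), whose call was lost without the filter on low values (-0.20), after the GC and length correction (-0.01), without siNS/Erastin replicate 1 (-0.22), without siNS/Erastin replicate 2 (-0.18) and without oeWDR76/Erastin replicate 2 (-0.15).

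In siDCAF8+siLSH cells without erastin the list was near its siNS level, with 11 members higher and 8 lower, against 35.9% of all tested genes called higher and 30.9% lower, and a median of -0.01. Scaling moved the split to 8 higher and 11 lower, under both median-ratio scaling and quantile normalization, and the GC and length correction gave 11 higher and 18 lower. MYBL2 had 17.65 and 16.03 FPKM in siDCAF8+siLSH cells, against 7.75 and 7.66 FPKM in siNS cells (log2 change 1.03, SE 0.08, adjusted p = 1.93e-08). BIRC5 had 52.53 and 51.68 FPKM in siDCAF8+siLSH cells, against 30.14 and 28.94 FPKM in siNS cells (log2 change 0.80, SE 0.09, adjusted p = 4.03e-07). LMNB1 had 52.65 and 53.91 FPKM in siDCAF8+siLSH cells, against 34.07 and 32.07 FPKM in siNS cells (log2 change 0.67, SE 0.06, adjusted p = 2.21e-08). These 3 were picked among members whose groups did not overlap, so their separation is not a further result. Of all tested genes 82.3% had no overlap in this comparison. The lower members included PTTG1 (-0.34), CENPA (-0.33) and KIF20A (-0.33).

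With erastin, siDCAF8+siLSH cells had 15 members higher and 6 lower than siNS cells, against 39.3% of all tested genes called higher and 26.7% lower, a median of 0.09. Median-ratio scaling gave 11 higher and 11 lower, quantile normalization 11 and 9, and the GC and length correction 11 and 12. KIF20B had 9.94 and 9.89 FPKM in siDCAF8+siLSH cells with erastin, against 4.67 and 5.29 FPKM in siNS cells with erastin (log2 change 0.87, SE 0.08, adjusted p = 1.06e-07). ANLN had 38.57 and 38.41 FPKM in siDCAF8+siLSH cells with erastin, against 63.4 and 65.28 FPKM in siNS cells with erastin (log2 change -0.73, SE 0.08, adjusted p = 1.29e-06). These were the ends of the range. Neither gene overlapped between groups, nor did 81.9% of all tested genes.

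Set against siDCAF8 alone, the added siRNA against LSH came with more of the mitotic transcripts. Without erastin 36 members were higher and 1 lower, against 26.4% of all tested genes called higher and 21.7% lower, and the median log2 change was 0.34 beside 0.03 over all tested genes. DCAF8 was less depleted in these libraries than in those of siDCAF8, as given above, and the part of that in the members' levels was not tested. After the GC and length correction 32 members were higher and 4 lower, with a median of 0.26. Before it, r with GC content was 0.02 over the 45 genes and -0.37 over all tested genes with a GC value. The part of GC content in these changes was not tested. CDK1 had 47.22 and 55.03 FPKM in siDCAF8+siLSH cells, against 27.24 and 32.44 FPKM in siDCAF8 cells (log2 change 0.76, SE 0.09, adjusted p = 8.24e-06). BUB1B had 25.72 and 26.73 FPKM in siDCAF8+siLSH cells, against 14.1 and 16.29 FPKM in siDCAF8 cells (log2 change 0.75, SE 0.09, adjusted p = 9.09e-06), while siNS cells had 26.04 and 26.57 FPKM (log2 change of siDCAF8+siLSH against siNS -0.00, adjusted p = 0.97). In the uncorrected fit TOP2A alone was called lower, with 107.28 and 112.18 FPKM in siDCAF8+siLSH cells, against 128.41 and 145.04 FPKM in siDCAF8 cells (log2 change -0.31, SE 0.07, adjusted p = 0.00139). The groups did not overlap for these 3 genes, nor for 71.9% of all tested genes.

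With erastin, 28 members were higher and 2 lower in siDCAF8+siLSH than in siDCAF8 cells, against 30.4% of all tested genes called higher and 19.3% lower, with a median of 0.23. The median was 0.53 in the 23 members of higher GC and 0.17 in the 22 of lower GC (r = 0.63 over the 45 genes). After the GC and length correction these medians were 0.37 and 0.21, with 28 members higher and 3 lower. The part of GC content in these changes was not tested. Median-ratio scaling gave 19 higher and 4 lower, and without siDCAF8+siLSH/Erastin replicate 1 the count of 30 dropped to 19. MYBL2 had 10.44 and 10.3 FPKM in siDCAF8+siLSH cells with erastin, against 4.42 and 3.45 FPKM in siDCAF8 cells with erastin (log2 change 1.21, SE 0.08, adjusted p = 1.95e-08). PLK1 had 51.29 and 41.38 FPKM in siDCAF8+siLSH cells with erastin, against 22.73 and 26.26 FPKM in siDCAF8 cells with erastin (log2 change 0.89, SE 0.09, adjusted p = 4.82e-07). Both genes were higher in each siDCAF8+siLSH library than in either siDCAF8 library. The lower members were TOP2A (-0.58) and ANLN (-0.35).

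Likeness of the erastin responses over the 45 genes was low between most genotypes, which share no library in this measure. Pearson's r was 0.61 between oeWDR76 and siDCAF8, 0.35 between oeWDR76 and siNS, 0.30 between siDCAF8+siLSH and siDCAF8, 0.11 between siDCAF8 and siNS, 0.03 between siDCAF8+siLSH and oeWDR76 and -0.21 between siDCAF8+siLSH and siNS. The SD over genes was 0.09 log2 in siDCAF8+siLSH and in oeWDR76, about the size of a single gene's SE, so a low r there does not show a different order of genes. The responses of siDCAF8 and oeWDR76 both had negative correlations with GC content, -0.81 and -0.48.

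The promoters of the members are rich in CHR elements and CCAAT boxes. RefSeq (GRCh38.p14) gave a promoter of 300 bases, 250 before the gene start and 50 from it on, for 39 of the 45 genes, where the start is that of RefSeq; AURKA, BIRC5, FOXM1, TPX2, TTK and UBE2C had no entry. The CHR letters TTTGAA on either strand were in 28 of the 39 (71.8%), against 15.4% of all 27305 promoters of the same length and 9.35% of those of the tested genes. CCAAT on either strand was in 30 (76.9%), against 35.7% of all promoters, and both were in 24 (61.5%), against 6.08%. The CHR matches had a median first base 27 bases before the gene start (position -27), and in 2 members a CHR shared bases with a CCAAT box. Among further mitosis genes 25 of 47 promoters (53.2%) held a CHR, 61.7% a CCAAT box and 34.0% both. Among G1/S genes 1 of 32 promoters (3.12%) held a CHR and 56.2% a CCAAT box. These are letter matches, with no measure of binding. The RefSeq start lay within 50 bases of the gene start in the deposited table for 17 of 38 members with both on one chromosome, with a median distance of 59.5 and a largest of 401 bases, so the positions hold for the RefSeq start alone. For KIF20A the RefSeq start lay 384 bases downstream of the deposited one, and its window does not reach the deposited start.

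The 4 sequences below belong to the described members with both elements whose transcripts fell most with erastin in siNS cells, in 5′ to 3′ direction on the gene's strand, with every TTTGAA and CCAAT (or their reverse complements TTCAAA and ATTGG) in capitals. HMMR lies at chr5:163460382-163460681, ESPL1 at chr12:53268049-53268348, PLK1 at chr16:23678639-23678938 and CDC20 at chr1:43358731-43359030, all on the plus strand.
HMMR: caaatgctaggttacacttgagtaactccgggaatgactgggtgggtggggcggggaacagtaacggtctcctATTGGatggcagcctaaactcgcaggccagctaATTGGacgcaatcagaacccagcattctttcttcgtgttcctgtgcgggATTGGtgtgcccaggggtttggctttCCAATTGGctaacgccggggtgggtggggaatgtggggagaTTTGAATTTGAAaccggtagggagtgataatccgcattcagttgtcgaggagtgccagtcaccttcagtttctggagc
ESPL1: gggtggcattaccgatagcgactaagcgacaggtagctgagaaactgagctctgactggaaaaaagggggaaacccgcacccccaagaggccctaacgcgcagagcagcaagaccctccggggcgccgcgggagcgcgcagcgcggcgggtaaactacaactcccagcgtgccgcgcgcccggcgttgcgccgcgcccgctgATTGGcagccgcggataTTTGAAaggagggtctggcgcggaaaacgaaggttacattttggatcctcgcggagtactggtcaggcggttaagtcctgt
PLK1: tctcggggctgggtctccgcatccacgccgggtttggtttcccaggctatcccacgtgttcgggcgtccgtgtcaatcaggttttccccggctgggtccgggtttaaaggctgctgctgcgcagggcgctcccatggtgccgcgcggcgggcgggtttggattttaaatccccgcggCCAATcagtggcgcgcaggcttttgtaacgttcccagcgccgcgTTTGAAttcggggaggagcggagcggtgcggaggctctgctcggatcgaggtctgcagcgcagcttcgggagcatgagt
CDC20: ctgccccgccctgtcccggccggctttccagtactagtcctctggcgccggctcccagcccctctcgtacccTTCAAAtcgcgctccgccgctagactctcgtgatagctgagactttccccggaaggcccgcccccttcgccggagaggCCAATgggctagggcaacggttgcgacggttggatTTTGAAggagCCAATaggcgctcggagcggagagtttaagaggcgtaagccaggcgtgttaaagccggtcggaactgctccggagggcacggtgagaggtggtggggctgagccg
HMMR holds 2 CHR matches in a row, at -28 and -22, and the single CHR of PLK1 and ESPL1 begins at -29 and -31.

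Some of the deepest falls came from genes without a CHR in this window. KIF20A, at chr5:138178862-138179161 on the plus strand, holds CCAAT boxes alone, and CENPE, at chr4:103198294-103198593 on the minus strand, holds neither element.
KIF20A: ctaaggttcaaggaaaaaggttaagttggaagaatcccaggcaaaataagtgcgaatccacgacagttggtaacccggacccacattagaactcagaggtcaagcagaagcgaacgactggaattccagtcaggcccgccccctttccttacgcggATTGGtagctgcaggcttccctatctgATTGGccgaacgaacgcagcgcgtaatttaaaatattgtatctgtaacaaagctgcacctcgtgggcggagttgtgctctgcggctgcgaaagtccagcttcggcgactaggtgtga
CENPE: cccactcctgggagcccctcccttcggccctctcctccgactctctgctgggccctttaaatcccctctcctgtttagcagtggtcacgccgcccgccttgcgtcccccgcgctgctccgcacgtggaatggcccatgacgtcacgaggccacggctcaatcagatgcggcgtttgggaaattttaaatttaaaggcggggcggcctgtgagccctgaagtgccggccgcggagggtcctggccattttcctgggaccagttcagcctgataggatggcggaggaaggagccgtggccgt
Over the list, the 28 members with a CHR and the 11 without it had median log2 changes with erastin of -0.65 and -0.78 in siNS, -0.49 and -0.58 in siDCAF8, -0.61 and -0.65 in siDCAF8+siLSH and -0.03 and -0.07 in oeWDR76. No match in this window says only that these letters are not there.

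Other genes of the cell cycle put the list in context. Of 55 tested further mitosis genes, erastin lowered 50 in siNS, 42 in siDCAF8 and 54 in siDCAF8+siLSH cells. It lowered none in oeWDR76 cells and raised none in any genotype. In oeWDR76 6 had an unadjusted p under 0.05, against 1527 of all 11260 tested genes. The further mitosis genes had median log2 changes of -0.51, -0.41 and -0.48 in the first 3 genotypes and 0.00 in oeWDR76. GTSE1, a microtubule-binding protein made in G2, had a log2 change of -1.13 (SE 0.08, adjusted p = 7.07e-08) with erastin in siNS cells. Of 38 G1/S and DNA replication genes, erastin lowered 31 in siDCAF8 and 34 in siDCAF8+siLSH cells but 13 in siNS cells, where 4 were higher. Of all tested genes 22.5%, 9.54% and 22.4% were called lower in these 3 genotypes, and 15.1% higher in siNS, so the G1/S counts in siNS (34.2% lower and 10.5% higher) were closer to those of all genes. Their median in siNS cells was -0.10, beside -0.64 for the 45 mitotic genes.

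Without erastin most G1/S genes were higher than in siNS cells in every other genotype. In siDCAF8 cells 34 of 38 were higher and none lower (median 0.61), while the mitotic genes had a median of -0.33. In oeWDR76 cells all 38 were higher (median 1.16), and in siDCAF8+siLSH cells 37 were higher and none lower (median 1.13). Of all tested genes 31.0% were called higher in siDCAF8, 41.6% in oeWDR76 and 35.9% in siDCAF8+siLSH. CHAF1A, a subunit of the chromatin assembly factor of replication, had log2 changes of 1.46 with siDCAF8, 2.21 with oeWDR76 and 1.95 with siDCAF8+siLSH (SE 0.07 each). These comparisons share the siNS libraries.

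Of 31 tested genes of cell cycle brakes and entry control, erastin raised 6 and lowered 8 in siNS and raised 7 and lowered 9 in siDCAF8. In siDCAF8+siLSH it raised 6 and lowered 8. None was called in oeWDR76 cells, with 6 at an unadjusted p under 0.05, against 1527 of all 11260 tested genes. In siNS (19.4% higher and 25.8% lower) and siDCAF8 (22.6% and 29%) these shares were near those of all tested genes, and in siDCAF8+siLSH (19.4% and 25.8%) above the 10.6% and 9.54% of all tested genes. Against siNS without erastin 12 were higher and 11 lower in siDCAF8 (38.7% and 35.5%, against 31.0% and 29.9% of all tested genes). In oeWDR76 14 were higher and 11 lower (45.2% and 35.5%, against 41.6% and 32.0%), so in both genotypes the shares were near those of all genes. In siDCAF8+siLSH 14 were higher and 14 lower (45.2% each way, against 35.9% and 30.9%). CDKN1A, which encodes the CDK inhibitor p21, was lower than in siNS cells without erastin in siDCAF8 (log2 change -0.81, SE 0.07, adjusted p = 3.09e-08), in oeWDR76 (log2 change -1.55, SE 0.07, adjusted p = 3.71e-12) and in siDCAF8+siLSH (log2 change -1.57, SE 0.07, adjusted p = 1.33e-11).

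**Figure D5:**
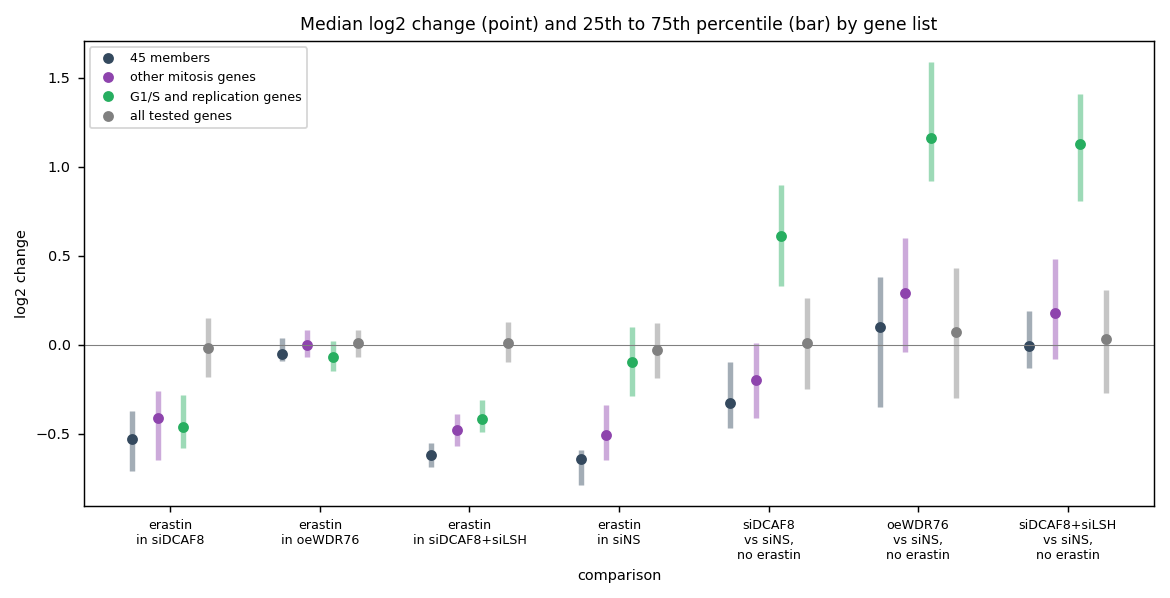
Median log2 change (points) and 25th to 75th percentile (bars) of the 45 members, the other mitosis genes, the G1/S and replication genes and all tested genes, in the 4 erastin comparisons and the 3 comparisons with siNS without erastin. Both mitosis lists lie below 0 with erastin in every genotype but oeWDR76, and the G1/S list lies above 0 in all 3 genotypes without erastin.

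Some members have a near copy or a read-through partner that can share reads, so their values are uncertain. KIF4B stayed at or below 0.02 FPKM beside KIF4A at 8.45 to 18.2 FPKM, PTTG2 at or below 0.21 FPKM beside PTTG1, and BUB1B-PAK6 at or below 0.31 FPKM beside BUB1B at 9.52 to 27.4 FPKM.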

How the data were processed

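RNA from HT-1080 cells was measured in 16 libraries, 2 for each of 8 groups. Per the labels' protocols, RNA was extracted with Trizol, amplified with Smart-seq v4 and prepared for sequencing by BGISEQ500 protocols. The deposited values are FPKM per gene. Per the submitters' processing notes the authors used StringTie and the GRCh38 build. The StringTie version, aligner and annotation were not given in the sources used here, and the depth is unknown.

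Tests used log2(FPKM + 1) in the 11260 genes whose mean reached 1 FPKM. The model, with a mean for each of the 8 groups, was fitted by limma 3.58.1 under R 4.3.3 (empirical Bayes with a mean trend, 8 residual and 8.57 prior degrees of freedom). It gave 12 comparisons between groups and 4 differences between erastin responses, two-sided, with Benjamini-Hochberg adjustment over all genes within each, and an adjusted p under 0.05 was called. The model was tested on simulated data. GC content, from GENCODE transcripts, and length, from the deposited table, were available for 11086 tested genes. Python 3.11.15 with pandas 2.3.3, numpy 2.4.6 and matplotlib 3.10.9 made the summaries and plots.

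The members and lists were chosen with earlier results of these data known. Members described in full were the 3 with the largest called change in each erastin comparison and in each comparison with siNS without erastin, where groups did not overlap, the 2 with the largest called difference of response against siNS, and CCNB1, CDK1, CDC20, AURKB, BIRC5, FOXM1, MYBL2, MKI67, TOP2A and LMNB1. From each other list, genes were named among the 4 of lowest p. Members outside this rule that are named with values were chosen after their values were seen. Promoters printed were those of up to 4 described members with both motifs, by the largest fall with erastin in siNS, and of 2 without the CHR. Alternatives were a pseudocount of 0.1, no filter, a filter of 5 FPKM, median-ratio scaling, quantile normalization, a replicate block, a correction of each library for GC content and transcript length (splines with 4 degrees of freedom), both of these together, fits limited to the compared groups, and the removal of each library in turn.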

Additional observations from a re-analysis of the deposited data

Results flagged for a closer look

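Erastin responses of the 45 genes differed between genotypes by a test of the difference itself (limma, adjusted over all tested genes). The response in oeWDR76 minus that in siNS passed in 44 of the 45 genes, the response in siDCAF8 minus that in siNS in 15, the response in siDCAF8+siLSH minus that in siNS in 6 and the response in siDCAF8+siLSH minus that in siDCAF8 in 9. In these last 2 the members' shares (13.3% and 20.0%) were below those of all tested genes (24.8% and 23.5%). The 9 became 0 after the correction for GC content and length, where only 248 of the 11086 genes with a GC value were called. Among the genes described in full, CDC25C and NUF2 each differed by 0.98 log2 between oeWDR76 and siNS. CENPE differed by 0.77 and MYBL2 by -0.71 between siDCAF8 and siNS. ESPL1 differed by 0.58 and CENPE by 0.49 between siDCAF8+siLSH and siNS.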

How the results depend on the processing

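The count of called members stayed within 1.5 times its value in most comparisons and alternatives, and the exceptions are given here; their cause was not tested. With the GC and length correction, called members were 29 for siDCAF8+siLSH against siNS without erastin (19 before), 12 for the response difference of siDCAF8+siLSH and siNS (6 before) and 0 for that of siDCAF8+siLSH and siDCAF8 (9 before), with the same 3 counts when a replicate block was added. Without the filter on low values the last was 5. Leaving out each library in turn gave 19 to 30 called members for siDCAF8+siLSH against siDCAF8 with erastin, 9 to 18 for the response difference of siDCAF8 and siNS, and 3 to 13 for that of siDCAF8+siLSH and siDCAF8. For the 20 genes described in full, 260 values gave 3620 recomputed ones, which cover fewer than the 16 comparisons tested. Of these, 3413 kept their call or lack of one, 78 gained a call, 126 lost one and 3 were counted as reversed. MKI67 in oeWDR76 against siNS without erastin was 0.13 after the correction, with and without the block. TOP2A in oeWDR76 against siNS with erastin was -0.21 with quantile normalization, against an uncalled 0.03 before, so no called result was turned around there. Other uncalled changes near 0 that changed sign were not counted as reversed. Same-numbered libraries deviated together with correlations of -0.21 to 0.39 between groups, above 0.1 in 7 of 28 group pairs. The highest was between siDCAF8 and siDCAF8+siLSH without erastin, and whether replicate numbers pair libraries is not settled by these values. The replicate block alone changed no count of called members by more than 1.

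Over all tested genes, leaving out a library took the called genes as low as 2796 for erastin in siNS (4223 in all libraries), 3021 in siDCAF8 (4600), 27 in oeWDR76 (163) and 1247 in siDCAF8+siLSH (2270). For the response differences the lowest were 1315 of siDCAF8 and siNS (2341), 906 of oeWDR76 and siNS (1593), 1761 of siDCAF8+siLSH and siNS (2790) and 1008 of siDCAF8+siLSH and siDCAF8 (2642). For erastin in oeWDR76 there were 84 without the filter and 270 with only the compared groups, and for the last difference 1755, 1696 and, with the GC and length correction, 248 (242 with the replicate block too). Scaling also moved the higher and lower split of all genes, to 2234 and 2058 for erastin in siNS with quantile normalization (1704 and 2519 before) and to 3590 and 3726 for siDCAF8+siLSH against siNS with erastin with median-ratio scaling (4423 and 3011 before). Median-ratio scaling gave 2725 and 2774 for siDCAF8+siLSH against siDCAF8 with erastin (3424 and 2176 before), 793 and 778 for the response difference of oeWDR76 and siNS (1018 and 575 before), 1425 and 1352 for that of siDCAF8+siLSH and siNS (1762 and 1028 before) and 1330 and 1332 for that of siDCAF8+siLSH and siDCAF8 (1602 and 1040 before). The GC and length correction gave 3905 and 4101 for oeWDR76 against siNS with erastin (5086 and 3490 before). The correction also gave 2416 and 2112 for erastin in siNS. Quantile normalization gave 2827 and 2755, 804 and 837, 1417 and 1465, and 1385 and 1387 for the 4 comparisons given with median-ratio scaling in the sentence on siDCAF8+siLSH against siDCAF8, and the correction 2864 and 2767, 945 and 987, 1247 and 1466, and 113 and 135. In oeWDR76 against siNS with erastin, quantile normalization and the correction each took the median of all tested genes to -0.01 (0.11 before) and that of the members to 0.61 and 0.73 (0.84 before). The depth is unknown, so no counting limit can be given for members of a few FPKM such as CENPE.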
